A study of Rattus norvegicus with 241 samples.

Results

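FOS, FOSB, JUN, JUNB, EGR1, ATF3, IER2, IER3 and DUSP1 are immediate early genes. They were chosen by name, with symbols matched ignoring case, and not by their values, though with earlier results of these data known. All 9 were found among the 16820 genes listed in any bulk table, and 8 of the 9 were listed in the single-cell tables, where IER2 was not. The samples came from female rats given the TGFβ receptor inhibitor LY2157299 (TGFBRi) or vehicle by gavage. The 202 bulk RNA-seq samples of 68 rats and the 39 single-cell libraries of 24 rats all came from mammary tissue or mammary tumors that had been digested into single cells before any sort or capture.

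Immediate early genes are transcribed within minutes of a stimulus without new protein synthesis, because the factors that switch them on (SRF with its ternary complex partners, and CREB) are already bound or waiting in the cell and are activated by MAP kinases and calcium or cAMP signals. Enzymatic digestion, stirring at body temperature and cell sorting are well-known stimuli of this kind, so the level of these transcripts in isolated cells may hold a part added on the bench. No undigested tissue was analysed here, so the digestion response itself was not tested, and protocol, cell type and treatment could only be compared among digested cells.

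The rats fell into the following groups. Young virgin ACI rats received TGFBRi at 75 mg/kg in 2 doses per day, or vehicle, for 10 days from 35 days of age, and were harvested 0, 7 or 14 days after the last dose (3 rats per group). Young virgin SD rats were dosed the same way from 24 days of age and harvested at day 0 (4 rats per group). Adult ACI rats of 18 to 24 weeks, virgin or parous, were dosed for 10 days and harvested at day 0 (4 rats per group, except in the CD45+ samples with 4 vehicle and 3 TGFBRi virgin rats and 2 vehicle and 4 TGFBRi parous rats). In the estradiol experiment ACI rats were dosed for 21 days from 38 days of age. They then received a 37 mg estradiol (E2) pellet or an empty implant, and the paper places their harvest months later. The empty implant went to 4 vehicle and 3 TGFBRi rats. Those with estradiol were 4 vehicle rats with tumors, 4 TGFBRi rats without tumors and 2 TGFBRi rats with tumors. In the NMU experiment SD rats began a 10-day course at an age of 21 days, were injected with the carcinogen N-nitroso-N-methylurea at 50 mg/kg and were harvested 87 days later, with glands of 3 tumor-bearing vehicle, 3 tumor-bearing TGFBRi and 3 tumor-free TGFBRi rats and tumors of 3 rats per arm. Bulk samples were basal (CD24+ CD29 high), luminal (CD24+ CD29 low) and CD45+ fractions, or EPCAM+ and CD45+ fractions of tumors. Single-cell libraries were sorted basal and luminal cells of young ACI rats (3 per arm) and young SD rats (3 vehicle, 6 TGFBRi), and unsorted whole gland of young SD rats (3 vehicle, 6 TGFBRi), all at day 0. Whether a given suspension was used fresh or after viable freezing was not given per sample.

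Bulk samples held 4194912 to 52314784 reads on genes (median 20100223). The single-cell sets held 16762 cells from ACI sorts, 39766 from SD sorts and 103524 from whole gland. Library pairs shared at most 3, 7 and 284 cell barcodes in these 3 sets. PTPRC, which encodes CD45, was at 48.29 to 1367.8 CPM in CD45+ samples and at most 51.44 CPM in epithelial ones. Fibroblast markers, however, summed to 978.21 to 89281.77 CPM in the young ACI CD45+ samples and to 17040.75 to 57066.42 CPM in the SD basal samples, so these fractions were not pure by this measure. In bulk samples, fewer cells of a type and less RNA per cell cannot be told apart.

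Of the 9 genes, 5 had a promoter in the RefSeq table (assembly GRCr8), which covers 250 bases before to 50 bases from the transcription start. FOS, JUN, ATF3 and IER3 were not in the table. Promoters of JUNB (chr19:40080876-40081175, plus strand), IER2 (chr19:40399123-40399422, plus strand) and DUSP1 (chr10:17184603-17184902, plus strand) are printed to show where elements lay, with the cAMP response element TGACGTCA, at which CREB and ATF proteins are known to bind, and the TATA box TATAAA in capitals.
JUNB: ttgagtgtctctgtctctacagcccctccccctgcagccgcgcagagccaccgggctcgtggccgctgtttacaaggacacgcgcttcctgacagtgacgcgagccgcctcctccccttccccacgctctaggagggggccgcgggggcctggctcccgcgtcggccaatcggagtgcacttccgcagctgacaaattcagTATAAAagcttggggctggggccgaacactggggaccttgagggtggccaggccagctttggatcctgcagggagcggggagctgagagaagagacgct
IER2: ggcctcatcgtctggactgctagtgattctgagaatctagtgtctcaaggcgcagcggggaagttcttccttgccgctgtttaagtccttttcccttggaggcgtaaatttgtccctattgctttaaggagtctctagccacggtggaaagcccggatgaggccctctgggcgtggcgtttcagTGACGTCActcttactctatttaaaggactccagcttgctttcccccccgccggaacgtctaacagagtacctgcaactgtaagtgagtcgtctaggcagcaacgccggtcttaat
DUSP1: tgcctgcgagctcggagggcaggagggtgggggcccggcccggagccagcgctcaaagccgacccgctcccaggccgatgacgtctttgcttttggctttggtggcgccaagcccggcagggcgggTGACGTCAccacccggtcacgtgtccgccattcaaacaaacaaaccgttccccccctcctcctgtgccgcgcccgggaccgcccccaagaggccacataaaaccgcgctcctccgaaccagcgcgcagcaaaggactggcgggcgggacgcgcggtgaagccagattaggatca
The cAMP response element began 66 bases before the start of IER2 and 124 bases before that of DUSP1, and it was in 1.83% of 33469 rat promoters of this length. JUNB held TATAAA from 49 bases before its start, as did 14.2% of all promoters. EGR1 held 2 copies of the CArG box, the SRF element, the nearer from 83 bases before its start, against 1.64% of promoters with at least 1. FOSB held TATAAA at 180 bases before its start. The AP-1 element TGACTCA, at which FOS and JUN proteins bind, was in none of the 5 windows and in 4.63% of all promoters. Both strands were searched, and a match is letters only.

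The 9 genes were among the most abundant transcripts of sorted mammary cells. Together they took 0.419% to 6.42% of the reads on genes in a bulk sample, with a median of 2.22%, and all 9 stood among the 1000 highest genes in 175 of the 202 samples. FOS, the AP-1 subunit that pairs with JUN proteins, was the highest gene of at least 1 sample and had a median rank of 14.5. FOS ranged from 288.15 to 19923.82 CPM over samples and EGR1, a zinc finger transcription factor, from 13.13 to 10728.37 CPM.

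The share differed by fraction and experiment. The luminal median was 3.22% in young ACI rats (range 1.51% to 6.42%) and 4.29% in young SD rats (1.41% to 5.08%). Basal medians were 2.33% in young ACI and 1.64% in young SD rats, below the luminal ones. In adult rats of all groups the basal median of 3.19% was above the luminal one of 2.63%. All medians of this paragraph pool both arms, and days or parity where these differ. Among adult vehicle rats, virgin ones had medians of 2.44% in basal and 2.71% in luminal samples, and parous ones 2.99% and 2.41%. With TGFBRi, virgin rats had 3.05% and 2.80%, and parous rats 4.11% and 2.87%. CD45+ medians were 1.65% in young ACI rats and 2.64% in young SD rats. The tumor fractions were at 1.96% in EPCAM+ cells and 1.04% in CD45+ cells. Young ACI luminal samples spanned the widest range, and the highest values there belonged to rats of both arms harvested at day 0.

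**Figure D1:**
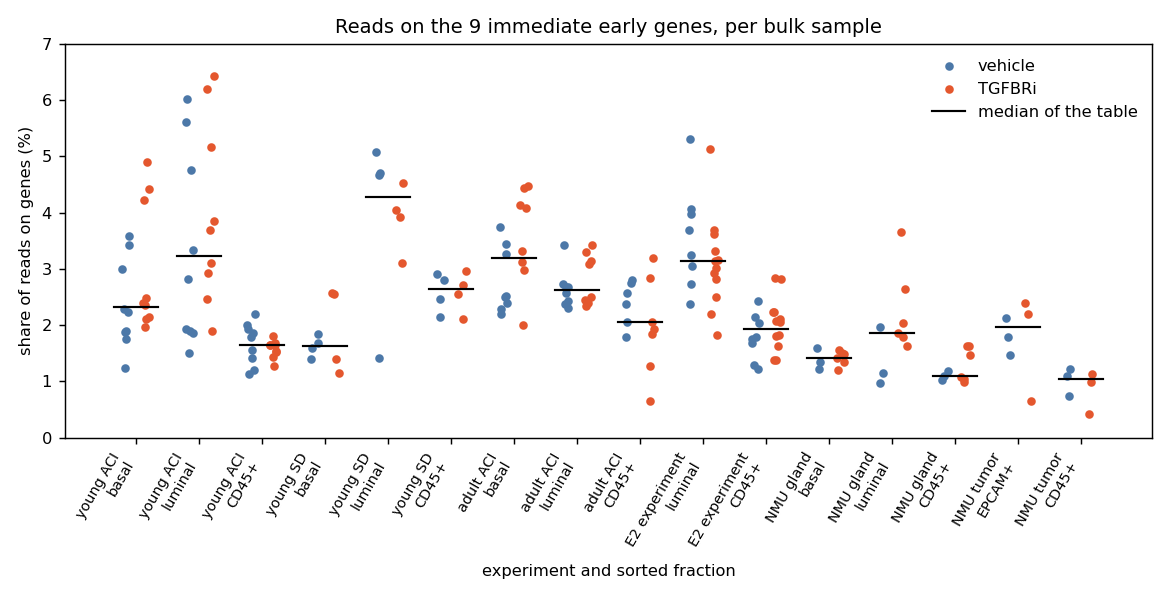
Share of reads on genes that fell on the 9 immediate early genes (y axis, percent) in each of the 202 bulk samples, by experiment and fraction (x axis). Points are samples, vehicle in blue and TGFBRi in orange, and bars are medians of all samples plotted. Young ACI luminal samples reach 6.42% and NMU tumor CD45+ samples go down to 0.419%.

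Across 196 bulk rat samples, after each group's mean was taken out, 8 of the 9 genes moved up and down together. Pearson's r of a gene with the mean of the other 8 was 0.757 for FOS, 0.754 for JUN, 0.753 for IER2, 0.726 for ATF3, 0.701 for JUNB, 0.678 for EGR1, 0.662 for DUSP1 and 0.536 for FOSB. IER3, an early gene known for its role in cell survival under stress, stood apart at 0.168. These values describe samples that share libraries and scaling, and no p is given for them.

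Among 10484 other genes compared, those most like the mean of the members were ZFP36 (r = 0.814), which encodes an mRNA-decay factor, the antiproliferative gene BTG2 (0.714), JUND (0.663), HES1 (0.659), IER5 (0.655), TRIB1 (0.636), CEBPB (0.611), IER5L (0.609), PNRC1 (0.594) and CISH (0.575). Of 36 other early response genes, 18 stood among the 100 most similar, and their median r was 0.402 against 0.0203 over all genes. The 10 heat shock genes compared, which report another kind of stress, had a median r of 0.198.

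Between sorted fractions of the same vehicle rats, the member calls were mostly lower in basal and CD45+ cells than in luminal cells. The young ACI contrasts pooled the 9 vehicle rats of all harvest days. The adult contrasts used the 4 virgin vehicle rats and left out the parous ones. In the pooled young ACI rats the luminal member share averaged 5.47% at day 0, against 2.08% and 2.37% at the later days. The part of the harvest day in these contrasts was not tested. The comparison asked whether the level after digestion differs by cell type, and over 8 contrasts 33 of 72 member tests passed (limma, adjusted p of 0.05 or less), 32 lower and 1 higher. Over all genes, 38.1% passed in young ACI basal against luminal, 52.3% in young ACI CD45+ against luminal, 53.5% in SD basal, 22.4% in SD CD45+, 37.4% in adult basal, 39.2% in adult CD45+, 22% in NMU gland basal and 25.3% in NMU gland CD45+ cells, each against luminal cells. The count of members was thus near the background, and the direction and the named genes are what the tests describe. With 2 contrasts of tumor against gland fractions, described further on, 37 of 90 tests passed, and leaving out samples of each rat in turn gave 31 to 40 calls.

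ATF3, a stress-induced repressor of the ATF/CREB family, was lower in all 4 basal and all 4 CD45+ contrasts, with a test passed in each. In SD rats ATF3 was at 770.14 to 1059.64 CPM in basal cells (median 799.84) and at 2088.34 to 5595.24 CPM in luminal cells (median 4420.68), and the groups did not overlap. The log2 difference of ATF3 there was -2.19 (SE 0.31, adjusted p = 0.000236, limma, n = 4 rats). In SD basal samples of both arms fibroblast markers summed to 17040.75 to 57066.42 CPM, above the basal markers at 4375.16 to 10300.96 CPM. The part of such cells in this difference was not tested. Over the 4 experiments the log2 difference of ATF3 ran from -2.19 to -0.98 in basal and from -2.08 to -1.65 in CD45+ cells.

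JUN, the main partner of FOS in AP-1, passed lower in 3 of 4 basal contrasts and in 4 of 4 CD45+ contrasts (-1.85 to -1.40 on the log2 scale). IER3 passed lower in all 4 CD45+ contrasts (-2.95 to -1.70) and in 2 of 4 basal ones. In SD CD45+ cells IER3 was at 395.83 to 1543.55 CPM (median 657.27), all below the luminal samples at 3274.62 to 10901.37 CPM (median 5143.22). FOS passed in no basal contrast and in 2 CD45+ contrasts, and EGR1 likewise in none and 2. JUNB, an AP-1 subunit that limits JUN activity, went the other way in young ACI rats: CD45+ samples stood at 3321.79 to 9180.10 CPM (median 5514.36) and luminal samples at 1535.02 to 4974.83 CPM (median 2184.65), overlapping in part, with a log2 difference of 1.08 (SE 0.19, adjusted p = 0.000116, limma, n = 9 rats).

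Tumor fractions were compared with the gland fractions of NMU vehicle rats, and 22.1% of all genes passed between EPCAM+ tumor cells and luminal gland cells and 11% between CD45+ cells of tumor and gland. IER3 was at 297.48, 526.54 and 544.73 CPM in EPCAM+ tumor cells and at 2390.09, 6053.07 and 6835.13 CPM in luminal gland cells. The groups did not overlap, and IER3 fell by 3.39 on the log2 scale (SE 0.66, adjusted p = 0.00374, limma).

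In CD45+ cells EGR1 was lower in tumors by a log2 difference of -3.01 (SE 0.36, adjusted p = 0.000295, limma) and ATF3 by -2.04 (SE 0.38, adjusted p = 0.00544), while JUNB was higher at 4359.88 to 7988.75 CPM against 2445.76 to 2860.82 CPM (log2 1.14, SE 0.32, adjusted p = 0.0404). Tumors were digested, frozen and sorted with other markers than glands, so protocol and tissue cannot be told apart here. Fibroblast markers summed to 9750.16 to 78787.63 CPM in EPCAM+ tumor samples. In CD45+ samples of all arms they summed to 7568.22 to 29133.42 CPM in glands and 338.87 to 2495.07 CPM in tumors, and T cell markers to 216.02 to 1538.41 and 1444.63 to 6718.88 CPM. The epithelial marker KRT8 was at 647.54 to 3647.40 CPM in gland CD45+ samples and 4.96 to 197.74 CPM in tumor ones, and EPCAM at 148.15 to 501.28 and 12.89 to 30.28 CPM. For all these markers, their part in the results was not tested.

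The most member calls between conditions in bulk samples came with the day of harvest in vehicle rats. In luminal cells of young ACI vehicle rats FOSB and EGR1 passed lower 7 and 14 days after the last dose, and FOS passed lower at day 14, each against day 0. Of 99 member tests over the 11 contrasts of day, parity and estradiol in vehicle rats, 6 passed, all lower and all by day, against 0.286% of the tests of all genes. Parity and estradiol gave 0 calls in 45 member tests (limma, with 4 at an unadjusted p under 0.05). Over all genes 0% passed in each parity contrast, so the tests of parity show nothing particular to the members. With estradiol 0.282% of all genes passed in CD45+ cells and 1.48% in luminal cells. The background was 0.685% in luminal day 7 against day 0, 0.389% in luminal day 14 and 0.129% in CD45+ day 14. The day 7 and day 14 contrasts share their 3 day 0 rats, so they are not independent.

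FOSB, a FOS relative that also pairs with JUN proteins, had normalised values of 32798, 63061 and 64667 in luminal cells at day 0, of 10702, 14099 and 14362 at day 7, and of 6190, 7091 and 10745 at day 14. Neither later day overlapped day 0. The log2 change of FOSB was -1.98 at day 7 (SE 0.34, adjusted p = 0.0157, limma) and -2.72 at day 14 (SE 0.34, adjusted p = 0.00239). The day 7 call for FOSB was lost without rats LD2L, LD2LR, LD3L or LD4R (adjusted p of 0.0591, 0.0730, 0.108 and 0.111). The day 14 call held without each of the 6 rats in turn, with adjusted p from 0.00256 to 0.0322. In a fit of only the 2 days compared, both calls were lost (adjusted p = 0.144 and 0.0629), as were the other day calls for FOS (0.0941) and EGR1 (0.181 and 0.0982) in luminal and FOSB (0.526) in CD45+ cells.

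FOS was at 226285, 271182 and 312094 at day 0, at 55093, 91271 and 98661 at day 7 and at 38484, 42039 and 100201 at day 14. All 6 later values of FOS lay below all 3 at day 0. The log2 change was -1.76 at day 7 (SE 0.39, adjusted p = 0.0514) and -2.29 at day 14 (SE 0.39, adjusted p = 0.0212, limma). Without any 1 of 5 of the 6 rats FOS at day 14 missed the threshold (adjusted p up to 0.136, without rat LD4R), while the change stayed between -2.73 and -2.04.

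EGR1 was at 64598, 68275 and 78926 at day 0, at 14842, 14895 and 34213 at day 7 and at 13651, 15018 and 31883 at day 14, again without overlap with day 0. The log2 change of EGR1 was -1.84 at day 7 (SE 0.37, adjusted p = 0.0300, limma) and -1.91 at day 14 (SE 0.37, adjusted p = 0.0311). With edgeR both EGR1 calls were lost (adjusted p = 0.0603 and 0.0684). Leaving out rats other than LD5R at day 7 or LD11R at day 14 ended these calls (adjusted p up to 0.170 and 0.191). At day 7, 1 vehicle rat (LD2LR) had basal and luminal samples that are vehicle by title and treated by description, and without it the changes were -1.85 for FOSB (adjusted p = 0.0730) and -1.64 for EGR1 (adjusted p = 0.122).

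The remaining members in luminal cells had smaller or more scattered values. JUN was at 173144, 209551 and 239577 at day 0 and at 42249, 55147 and 110522 at day 7 (log2 -1.69, SE 0.39, adjusted p = 0.0564). JUNB was at 68765, 71306 and 83353 at day 0 and at 26524, 31117 and 35769 at day 7 (-1.26, SE 0.29, adjusted p = 0.0564). IER3 differed by about 1 SE or less, at 0.70 (SE 0.69) at day 7 and 0.28 (SE 0.69) at day 14. DUSP1, the phosphatase that switches MAP kinases off, had a log2 change of -0.93 (SE 0.33, adjusted p = 0.186) at day 7.

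Other early response genes of a list fixed with earlier results known fell in the same contrasts. EGR2 (log2 -3.54, adjusted p = 0.00704), KLF2 (-2.83, 0.00256) and KLF4 (-2.17, 0.0267), all zinc finger factors induced early, were lower in luminal cells at day 14, and EGR2, SOCS3 and BTG2 at day 7. Over the 11 contrasts 10 of 402 tests of the list passed, all lower, and 0 of 121 tests of heat shock genes passed. Luminal progenitor markers summed to 13149.62 to 16033.38 CPM at day 0 and to 28260.61 to 56743.78 CPM at day 14, with 0 of 8 markers passing; their part in the change was not tested.

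In CD45+ cells FOSB was at 14345, 20622 and 20683 at day 0, at 9531, 9726 and 10147 at day 7 and at 4749, 5365 and 5754 at day 14. The 3 days did not overlap, and the day 14 change of FOSB was -1.79 (SE 0.27, adjusted p = 0.0239, limma). Without rats LD11L, LD11R, LD12R or LD3R in turn that call for FOSB missed the threshold (adjusted p of 0.0725, 0.123, 0.115 and 0.0568). Over young ACI CD45+ samples of all days and both arms fibroblast markers summed to 978.21 to 89281.77 CPM. Their part in the change of FOSB was not tested. Day of harvest and the age of the rat rise together in this design and cannot be told apart from any difference in bench work between harvest days.

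Luminal values of TGFBRi rats also stood lower at the later days, which was not tested within that arm. FOS in luminal cells of TGFBRi rats was at 219005, 262870 and 274968 at day 0, at 124783, 149045 and 217981 at day 7 and at 73511, 129499 and 142693 at day 14. FOSB was at 55172, 66985 and 78717, then 18639, 29375 and 40286, then 12940, 14567 and 15145. A direct test of whether the effect of TGFBRi changed with the day or with parity passed in 0 of 81 member tests (limma, with 8 at an unadjusted p under 0.05, and 0 also by edgeR and DESeq2), against 0.130% over all genes.

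**Figure D2:**
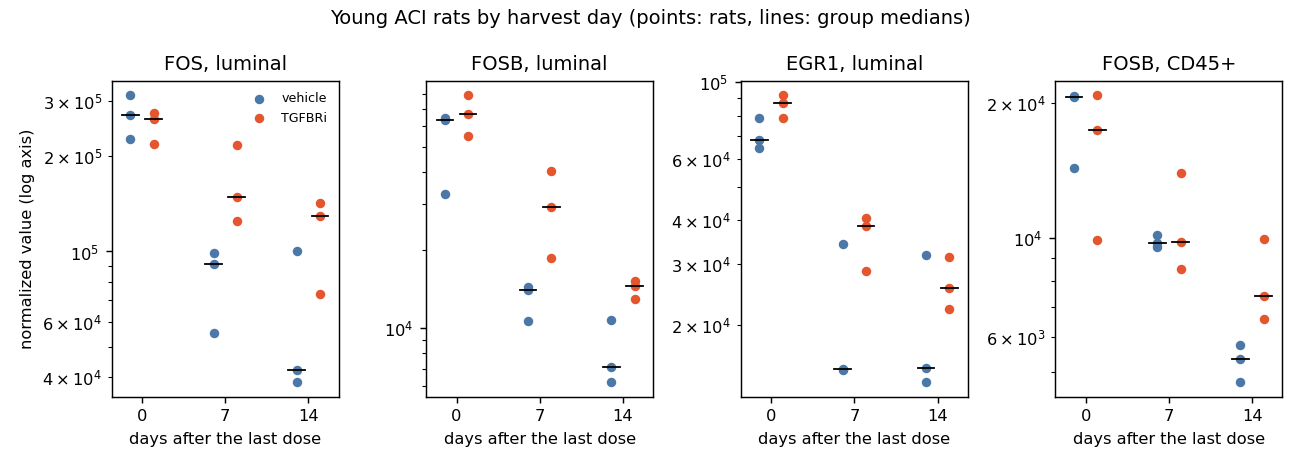
Normalised values (y axis, log scale) of FOS, FOSB and EGR1 in luminal cells and of FOSB in CD45+ cells of young ACI rats by days after the last dose (x axis). Points are rats, vehicle in blue and TGFBRi in orange, and lines are group medians. Vehicle FOSB in luminal cells goes from 32798 to 64667 at day 0 down to 6190 to 10745 at day 14.

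For TGFBRi itself, 1 member passed in 1 bulk comparison of the main fit, and that call did not hold in every alternative. Over 32 comparisons of TGFBRi with vehicle, 1 of 288 member tests passed (limma, adjusted p of 0.05 or less; 26 at an unadjusted p under 0.05), against 0.588% of the tests of all genes. Young SD rats, adult rats and part of the young ACI rats were harvested at the end of dosing. The other young ACI rats and the NMU and estradiol rats were harvested days to months later. The count therefore pools both times of harvest and does not describe the response to ongoing inhibition alone. The estimates ran from -1.72 to 1.16 on the log2 scale with a median SE of 0.337, which is the precision of 1 comparison. Several comparisons share vehicle rats or come from fractions of the same rats.

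The call was IER3 in basal cells of adult virgin rats, where 8.73% of all genes passed. Vehicle rats had IER3 values of 21415, 22737, 23948 and 39214, and TGFBRi rats of 9238, 9802, 15245 and 21632. The highest TGFBRi rat just overlapped the lowest vehicle rat. The log2 change of IER3 was -0.98 (SE 0.27, adjusted p = 0.0333, limma), or -0.74 relative to the median of all genes, which was -0.25 in this comparison. In a fit of only these 2 groups the call for IER3 was lost (adjusted p = 0.159). It also ended without vehicle rats N1N (adjusted p = 0.0862), N2N (0.0679) or N2R (0.0554) or TGFBRi rats N2N (0.0891) or N2R (0.0747). Vascular endothelial markers in these samples summed to 38.84 to 164.42 CPM in TGFBRi and 118.99 to 1423.43 CPM in vehicle rats with 2 of 8 passing lower, and luminal progenitor markers to 2168.84 to 5234.58 and 4414.89 to 9031.66 CPM; their part in the result was not tested.

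Other members in the same basal cells had estimates above 0 that did not pass. DUSP1 was at 56338, 66395, 70548 and 123952 in vehicle and at 87529, 128193, 169982 and 201975 in TGFBRi rats, overlapping in part (log2 0.89, SE 0.29, adjusted p = 0.0648). IER2, a nuclear protein induced by growth factors, had a log2 change of 0.76 (SE 0.27, adjusted p = 0.0875) and JUNB of 0.83 (SE 0.32, adjusted p = 0.110).

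In basal cells of young ACI rats at day 0 EGR1 was at 55850, 65771 and 71049 in vehicle and at 115061, 129163 and 131636 in TGFBRi rats, without overlap. Across all genes the change of EGR1 did not pass (log2 0.97, SE 0.30, adjusted p = 0.0743), and the median of all genes there was 0.30. Reads on genes in these samples were 12382292, 18200891 and 18781674 in vehicle and 4194912, 6562769 and 15136358 in TGFBRi rats. In CD45+ tumor cells EGR1 was at 613, 677 and 997 in vehicle and at 149, 254 and 304 in TGFBRi rats, also without overlap and without passing (log2 -1.72, SE 0.54, adjusted p = 0.634).

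Over the lists, 9 of 1172 bulk tests of other early response genes passed (7 higher, 2 lower), 1 of 347 of heat shock genes and 2 of 352 of upstream regulators such as SRF, CREB1 and MAP kinase genes. Of 244 tests of TGFβ target genes 8 passed, all lower, which is 3.28% against 0.588% over all genes. In the single-cell comparisons described further on, 36 of 163 tests of this list passed, 12 higher and 24 lower. That is 22.1% against 23.4% over all genes, near the background. The medians of all genes lay beyond 0.1 on the log2 scale in 10 of the 32 comparisons, from -0.32 to 0.30, and 16 comparisons had no called gene at all.

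**Figure D3:**
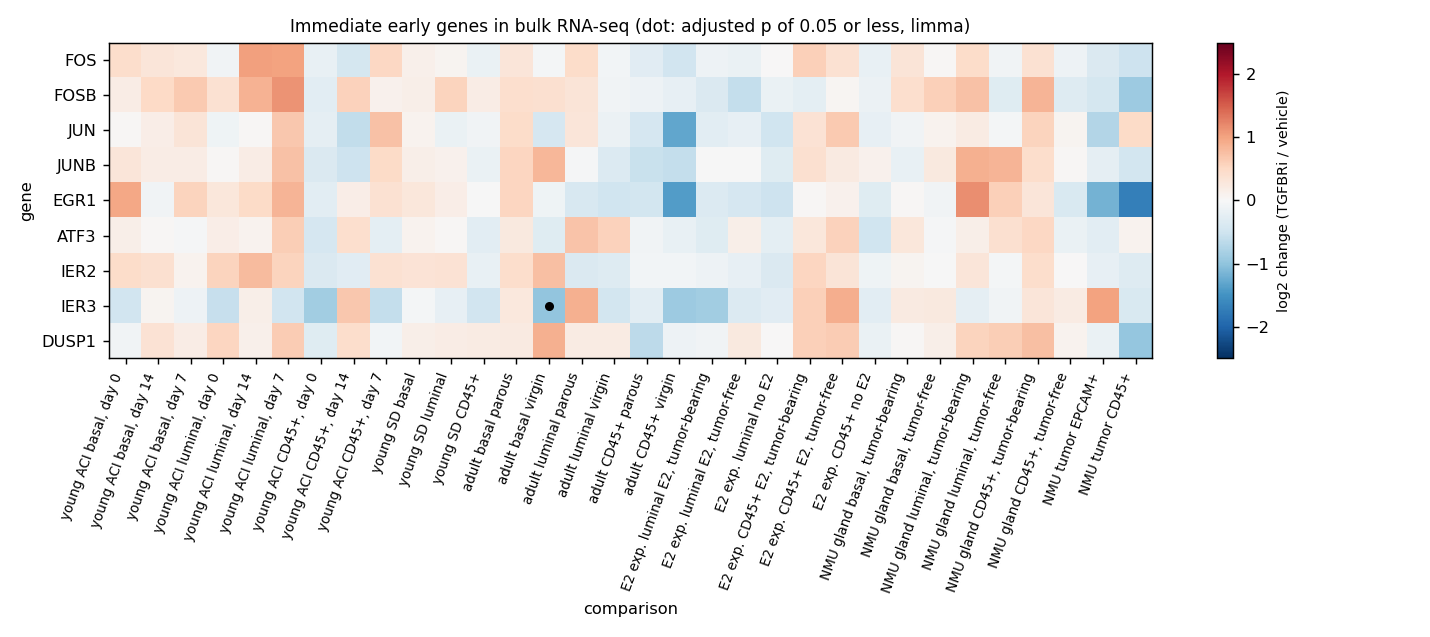
Log2 change of TGFBRi against vehicle (colour) of the 9 genes (y axis) in 32 bulk comparisons (x axis), from limma. The dot marks an adjusted p of 0.05 or less, which IER3 in adult virgin basal cells reached at -0.98.

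In single cells, levels were UMIs summed per rat and class, given as CPM of all UMIs of that rat and class, and cells were put in classes by clustering without the members and by named markers. TGFBRi was compared with vehicle in 19 classes, and 70 of 152 member tests passed (edgeR's quasi-likelihood test, adjusted p of 0.1 or less, the study's threshold), 40 higher and 30 lower. This is 46.1% of member tests against 23.4% of the tests of all genes, 30.9% of those of other early response genes and 34.7% of those of heat shock genes. Classes of 1 data set come from the same rats and are not independent of each other. The sorted and the whole-gland libraries are described apart.

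In sorted cells of young ACI rats 15 of 24 member tests passed, 4 higher and 11 lower. All genes passed at 32.9% in basal-like, 29.7% in luminal progenitor-like and 25.8% in mature luminal-like cells. The members took 2.74% of UMIs in basal-like cells of vehicle rats (SD 0.42, n = 3) and 1.49% in TGFBRi rats (SD 0.12, n = 3). In bulk basal sorts of young ACI rats at day 0 the order was the opposite, with 2.99% to 3.58% of reads in vehicle and 4.221% to 4.903% in TGFBRi rats (3 rats each). These bulk samples held 12382292 to 18781674 reads on genes in vehicle and 4194912 to 15136358 in TGFBRi rats. Neither the difference between the assays nor the part of depth in it was tested.

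Basal-like cells of the arms lay in different clusters. Of the ACI basal-like cells, clusters 1 and 3 held 48.2% and 32.1% in vehicle rats and 2.47% and 1.60% in TGFBRi rats (means over rats), while clusters 4 and 6 held 2.34% and 0.90% against 40.1% and 35.4%. FOS overlapped between arms in 4 of the 5 clusters (1, 3, 4 and 6), for example at 7278 to 11828 CPM in vehicle and 9420 to 13613 CPM in TGFBRi rats in cluster 1. Within cluster 5, which held 16.5% and 20.4%, FOS was at 3698 to 6256 against 2100 to 3581 CPM, without overlap. In luminal progenitor-like cells the arms shared both clusters about equally (72.2% and 71.8% in cluster 2), and FOS there was at 3094 to 5058 against 976 to 1414 CPM.

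FOS was at 6816, 8932 and 10412 CPM in basal-like cells of the vehicle rats and at 3105, 3158 and 3861 in those of the TGFBRi rats. The groups did not overlap, and FOS fell by 1.15 on the log2 scale (edgeR, adjusted p = 0.000416; DESeq2 -1.12, SE 0.14). FOS also passed lower in luminal progenitor-like (-0.92, adjusted p = 0.00266) and in mature luminal-like cells (-0.40, adjusted p = 0.0949). In mature luminal-like cells 1 of 6 leave-one-out fits kept the call for FOS.

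JUN in basal-like cells was at 4114, 5666 and 6400 CPM in vehicle and at 2565, 2599 and 2730 in TGFBRi rats, without overlap (log2 -0.81, adjusted p = 0.00193, edgeR; DESeq2 SE 0.14). EGR1 was at 3889, 4506 and 5618 against 2326, 2499 and 2729, also without overlap (-0.67, adjusted p = 0.00345). JUNB passed lower in the 3 classes (-0.56 to -0.40), and 2 of 6 leave-one-out fits kept each call. FOSB passed lower in luminal progenitor-like cells (-0.67, adjusted p = 0.0107).

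IER3 and DUSP1 went the other way in the same ACI rats. IER3 was at 921, 1008 and 1111 CPM in vehicle basal-like cells and at 1123, 1169 and 1312 in TGFBRi cells, just without overlap, and rose by 0.47 (adjusted p = 0.00956, edgeR; DESeq2 0.50, SE 0.12). DUSP1 in luminal progenitor-like cells was at 427, 442 and 510 against 518, 652 and 678, a rise of 0.73 (adjusted p = 0.00204). These fitted values are TMM-scaled, and in the sorted libraries that scaling moved the members by 0.19 to 0.42 upward against plain CPM (median over members per class), and in whole gland by -0.23 to 0.04. In this check, chosen after seeing the data, all 70 called values kept their sign on plain CPM, and 9 of the 82 values that were not called changed sign.

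In sorted cells of young SD rats 7 of 32 member tests passed, 1 higher and 6 lower. All genes passed at 29.4% in basal-like, 28.6% in luminal progenitor-like and 30.9% in mature luminal-like cells and at 0% in the few fibroblast-like cells. The count of members was thus near the background in these sorts. The members took 1.34% of UMIs in basal-like cells of vehicle rats (SD 0.042, n = 3) and 0.672% in TGFBRi rats (SD 0.21, n = 6). FOS in basal-like cells was at 2898, 2917 and 3653 CPM in vehicle rats and at 540 to 2128 (median 840) in the 6 TGFBRi rats, all below the vehicle rats. FOS fell by 1.26 (adjusted p = 0.0269, edgeR; DESeq2 -1.27, SE 0.38). Here too the arms lay in different clusters: cluster 7 held 76.9% of basal-like cells in vehicle rats and 1.63% in TGFBRi rats, cluster 3 held 1.07% and 46.95%, and cluster 6 held 93.3% of the basal-like cells of TGFBRi rat 14 and none of vehicle rats. In cluster 4, which both arms shared, FOS was at 1858 to 2970 CPM in vehicle and 655 to 1723 CPM in TGFBRi rats, without overlap, while EGR1 overlapped there at 1110 to 1465 and 440 to 1955 CPM. Without rat 14 the change of FOS was -1.17 (adjusted p = 0.0432), and without vehicle rat 3 the call was lost (adjusted p = 0.120).

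EGR1 in SD basal-like cells was at 1522, 1677 and 2081 in vehicle rats and at 344 to 1061 (median 609) in TGFBRi rats (-0.997, adjusted p = 0.0480, edgeR). FOSB was at 2168, 2544 and 2556 against 683 to 1590 (median 1115; -0.67, adjusted p = 0.0559). Neither overlapped. The call for EGR1 was lost without vehicle rat 1 (adjusted p = 0.181) or 3 (0.159), and that for FOSB without vehicle rat 1 (0.181) or 3 (0.200) or TGFBRi rat 11 (0.106). FOS and FOSB also passed lower in mature luminal-like cells (-0.98 and -0.82) and EGR1 in luminal progenitor-like cells (-0.85). In the main mature luminal cluster (82.2% of these cells in vehicle and 56.01% in TGFBRi rats) FOS was at 4701 to 6628 against 1980 to 4140 CPM, without overlap. Luminal progenitor-like cells lay in different clusters by arm, with cluster 5 at 56.1% and 12.7%, cluster 2 at 0.84% and 37.4% and cluster 8 at 0.25% and 18.7%. Within clusters 0 and 5, EGR1 overlapped between arms, at 387 to 645 against 260 to 410 CPM and at 701 to 1388 against 346 to 1541 CPM. JUNB passed higher in luminal progenitor-like cells (0.69, adjusted p = 0.0840), where the arms overlapped at 560.91 to 828.65 and 614.90 to 975.41, and 3 of 9 leave-one-out fits kept that call for JUNB.

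Part of the heat shock list passed higher in sorted SD cells. In SD luminal progenitor-like and mature luminal-like cells 7 of 10 heat shock genes passed higher in each and none lower, and in basal-like cells 5 of 10 did, among them the chaperone genes HSPE1 (1.59, adjusted p = 0.0122) and HSPA8 (1.26, adjusted p = 0.00612). The count in luminal progenitor-like cells was 0 without vehicle rat 1, 2 or 3, and in basal-like cells it was 2 without rat 1 and 1 without rat 3. The share of UMIs on these genes overlapped between arms in luminal progenitor-like cells, at 0.735% to 0.967% in vehicle and 0.719% to 1.40% in TGFBRi rats. In ACI basal-like cells 4 of 10 passed higher, led by HSP90AA1 (0.88, adjusted p = 0.000405). Of the other early response genes, SOCS3, a feedback inhibitor of cytokine signaling, was lower in ACI (-1.14) and SD (-2.08) basal-like cells, as was KLF2 (-1.05 and -1.98), while PHLDA1 (1.64) and IER5 (1.18) were higher in ACI basal-like cells.

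In unsorted whole gland 48 of 96 member tests passed, 35 higher and 13 lower. The members' share of UMIs in basal-like cells was 0.925% in vehicle (SD 0.037, n = 3) and 1.06% in TGFBRi rats (SD 0.22, n = 6). All genes passed at 43.9% in basal-like, 26.9% in luminal progenitor-like, 29.2% in mature luminal-like, 28.9% in fibroblast-like, 26% in pericyte- and smooth muscle-like, 31.7% in vascular and 15.9% in lymphatic endothelium-like, 9.15% in Schwann-like, 17.5% in B-like, 6.65% in T-like, 4.61% in NK-like and 4.47% in macrophage-like cells.

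FOSB passed higher in 9 of the 12 whole-gland classes, with changes of 0.53 to 2.07 in these. In fibroblast-like cells FOSB was at 214, 235 and 280 CPM in vehicle rats and at 783 to 1481 (median 1193) in TGFBRi rats, far from overlap (2.07, adjusted p = 0.000135, edgeR; DESeq2 2.05, SE 0.22). In basal-like cells FOSB was at 280, 312 and 431 against 448 to 1200 (median 921; 1.42, adjusted p = 0.00264). These arms lay mostly in different clusters, and within cluster 5 FOSB overlapped at 373 to 620 and 444 to 1228 CPM. It did not overlap in cluster 9, at 277 to 345 against 561 to 1226 CPM, or in cluster 21, at 170.07 to 465.82 against 487 to 1215 CPM. The 3 classes in which FOSB did not pass were luminal progenitor-like, macrophage-like and B-like cells.

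FOS passed higher in 6 classes, with estimates of 0.20 to 1.39 in all 12. In fibroblast-like cells FOS was at 397, 446 and 513 in vehicle rats and at 909 to 1773 (median 1417) in TGFBRi rats, without overlap (1.39, adjusted p = 0.00130, edgeR; DESeq2 1.37, SE 0.23). In basal-like cells FOS was at 513, 787 and 921 against 640 to 1916 (median 1642), and 1 TGFBRi rat lay within the vehicle range (1.07, adjusted p = 0.0242). Of whole-gland basal-like cells, cluster 9 held 75.5% in vehicle and 2.00% in TGFBRi rats and cluster 5 held 20.3% and 94.2%, and within cluster 5 FOS overlapped between the arms, at 876 to 1534 and 621 to 1966 CPM. Within cluster 9 FOS did not overlap, at 485 to 749 against 815 to 3334 CPM. In cluster 21 it overlapped, at 520 to 858 against 811 to 2034 CPM. The arms shared the main fibroblast cluster (71.8% and 75.2%), in which FOS was at 473 to 581 against 1053 to 2033 CPM. In lymphatic endothelium-like cells FOS was at 572, 604 and 636 against 1001 to 2228 (1.35, adjusted p = 0.000483).

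EGR1 passed higher in 7 classes, most in basal-like cells at 386, 439 and 615 CPM in vehicle rats against 664 to 1605 (median 1228) in TGFBRi rats (1.38, adjusted p = 0.00160, edgeR; DESeq2 SE 0.25). Within cluster 5, which held most basal-like cells of TGFBRi rats, EGR1 overlapped between arms at 761 to 1094 and 661 to 1653 CPM, while in cluster 9, at 361 to 419 against 697 to 1629 CPM, and cluster 21, at 304 to 474 against 696 to 1140 CPM, it did not. JUNB passed higher in 6 classes. In pericyte- and smooth muscle-like cells JUNB was at 1043, 1148 and 1420 against 2474 to 3487 (median 2912; 1.12, adjusted p = 0.000134), and in Schwann-like cells at 856, 974 and 1187 against 1653 to 2967 (1.23, adjusted p = 0.000389). JUN passed higher only in fibroblast-like (0.60) and lymphatic endothelium-like cells (0.76).

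IER3 was lower in whole gland and passed in 9 of 12 classes. In fibroblast-like cells IER3 was at 1399, 4543 and 5609 CPM in vehicle rats and at 593 to 839 (median 662) in TGFBRi rats, without overlap (-2.62, adjusted p = 0.000136, edgeR; DESeq2 -2.65, SE 0.29). In basal-like cells IER3 was at 3048, 3919 and 4199 against 1638 to 1995 (median 1770, log2 -1.02, adjusted p = 0.000109). In macrophage-like cells it was at 863, 1530 and 1653 against 342 to 705 (-1.52, adjusted p = 0.0108). Cluster 19 held 28.6% of these cells in vehicle and 15.7% in TGFBRi rats. IER3 overlapped between arms there, at 1006 to 2944 against 862 to 1252 CPM. It also overlapped in cluster 14, at 634 to 1363 against 170 to 667 CPM. In cluster 16 it did not, at 450 to 1009 against 312 to 410 CPM. In B-like and T-like cells, in which IER3 also passed, it stood at 13.5 to 113 CPM. That is 0.43% to 2.90% of its level in luminal progenitor-like cells of the same rat. By the same measure milk genes, which lymphocytes lack, were at 0.085% to 0.83% (LALBA), 0% to 1.12% (CSN2) and 0% to 0.63% (WAP). The part of free RNA in these low levels of IER3 and ATF3 was not tested. Without B-like, T-like and NK-like cells IER3 passed lower in 7 of 9 classes, and 39 of 72 member tests passed (31 higher, 8 lower). The luminal progenitor-like, lymphatic endothelium-like and NK-like classes did not pass for IER3.

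ATF3 split by class in whole gland. ATF3 was lower in luminal progenitor-like cells, at 2749, 3652 and 4459 CPM in vehicle against 1106 to 2034 (median 1877) in TGFBRi rats (-1.18, adjusted p = 0.00549, edgeR), and at 23.8 to 91.4 CPM also in B-like (-1.09) and T-like cells (-0.60). It was higher in basal-like (0.997, adjusted p = 0.0394), fibroblast-like (0.77) and lymphatic endothelium-like cells (0.79). In basal-like cells ATF3 overlapped between arms through 1 TGFBRi rat at 288, with vehicle rats at 300 to 462 and the other 5 at 724 to 934. DUSP1 passed higher in fibroblast-like (0.46) and Schwann-like (0.66) and lower in B-like cells (-0.66), and 5, 2 and 4 of 9 leave-one-out fits kept these calls.

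Of the 36 other early response genes in whole-gland basal-like cells 17 passed higher and 5 lower, where 43.9% of all genes passed, and the largest rises were those of the activity-induced genes ARC (2.19), EGR2 (2.09), NR4A1 (2.04), EGR3 (2.02) and NR4A2 (1.93). In whole-gland fibroblast-like cells 6 passed higher and 9 lower, with PHLDA1 (-1.88), FOSL1 (-1.78) and TNFAIP3 (-1.63) lowest. Heat shock genes there had 4 of 10 lower and none higher, but vehicle rat 4 stood apart, with 1.37% of UMIs on these genes against 0.746% and 0.700% in the other vehicle rats and 0.624% to 1.05% in TGFBRi rats. Without vehicle rat 4 the count in fibroblast-like cells was 1 lower and 2 higher. In macrophage-like cells 8 of 10 passed lower, and 5 of 10 without vehicle rat 4. Over all 19 classes, the member calls were 73 without that rat, against 70.

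**Figure D4:**
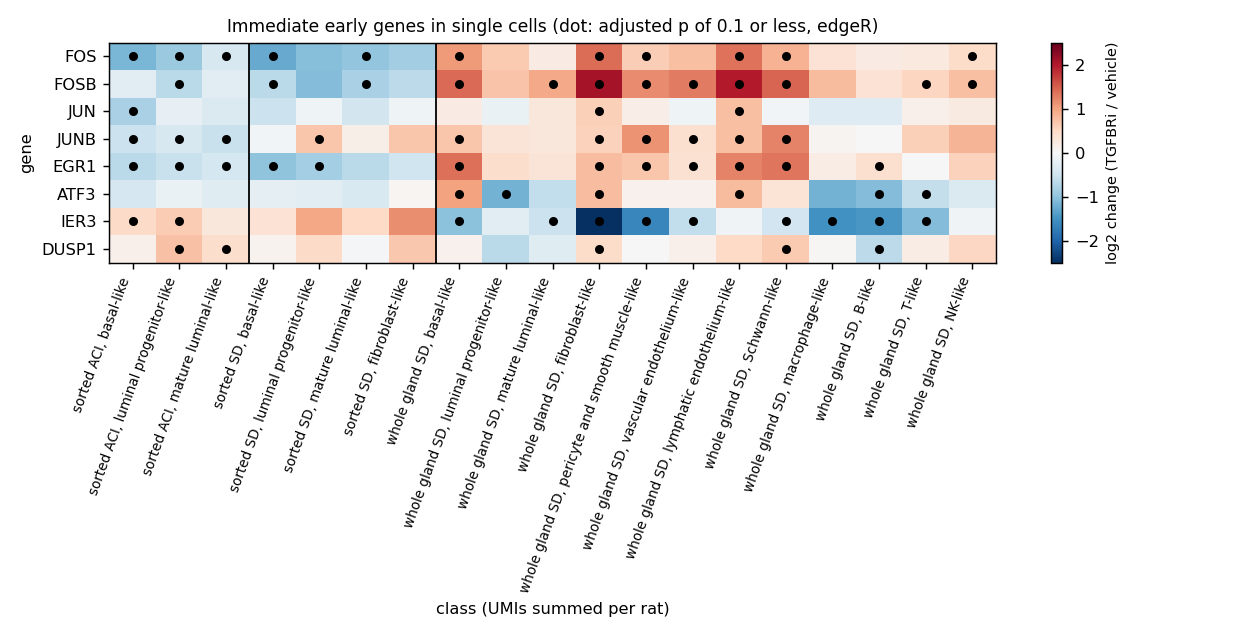
Log2 change of TGFBRi against vehicle (colour) of the 8 listed genes (y axis) in 19 single-cell classes (x axis), from edgeR on UMIs summed per rat. Dots mark an adjusted p of 0.1 or less, and vertical lines part the ACI sorts, the SD sorts and the SD whole gland. FOS has estimates below 0 in every sorted class and above 0 in every whole-gland class, and IER3 reaches -2.62 in whole-gland fibroblast-like cells.

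The direction was compared between the sorted and the whole-gland libraries of SD rats in a test chosen after opposite directions had been seen. The difference of the TGFBRi effect, sorted minus whole gland, passed for 12 of 24 member tests (3 higher, 9 lower; edgeR), against 38.2% of all genes in basal-like, 24.1% in luminal progenitor-like and 29.5% in mature luminal-like cells. In basal-like cells the difference was -2.41 for EGR1 (adjusted p = 0.000466; DESeq2 SE 0.47), -2.35 for FOS (adjusted p = 0.00192), -2.12 for FOSB (adjusted p = 0.000242) and -1.26 for ATF3 (adjusted p = 0.0175). The calls of EGR1, FOS, FOSB and ATF3 in basal-like cells, and of FOSB in mature luminal-like cells (-1.72), held in all 18 leave-one-out fits. The count fell to 5 without SD rat 3, to 6 without whole-gland vehicle rat 2 and to 7 without SD rat 1.

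Among vehicle rats alone the sorted and whole-gland libraries differed in level. Of 24 member tests 18 passed (11 higher, 7 lower in sorted cells), near the 66.9%, 61.4% and 58.9% of all genes in the basal-like, luminal progenitor-like and mature luminal-like classes. FOSB was higher in sorted cells in all 3 classes (2.78, 2.21 and 2.79 on the log2 scale, adjusted p = 9.5e-07, 0.00445 and 3.9e-05, edgeR) and FOS in 2 (2.03 in basal-like and 2.08 in mature luminal-like cells). IER3 was lower in sorted cells in all 3 (-2.40, -2.84 and -1.97). Sorting, the 3' or 5' chemistry, the animals and the pipeline version changed together between these libraries and cannot be told apart.

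Between basal and luminal sorts of the same rats, with vehicle and TGFBRi rats both included, 7 of 8 members passed in ACI (73.8% of all genes). In SD rats 4 of 8 passed (64.2% of all genes). ATF3 (-1.41 and -0.82), JUN (-1.13 and -1.02) and JUNB (-0.83 and -0.77) were lower in basal sorts of both strains. EGR1 was higher in ACI basal sorts (0.66, adjusted p = 5.5e-05, edgeR). DUSP1 was lower in ACI (-0.49) and higher in SD basal sorts (0.67), and the difference between strains was not tested.

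**Figure D5:**
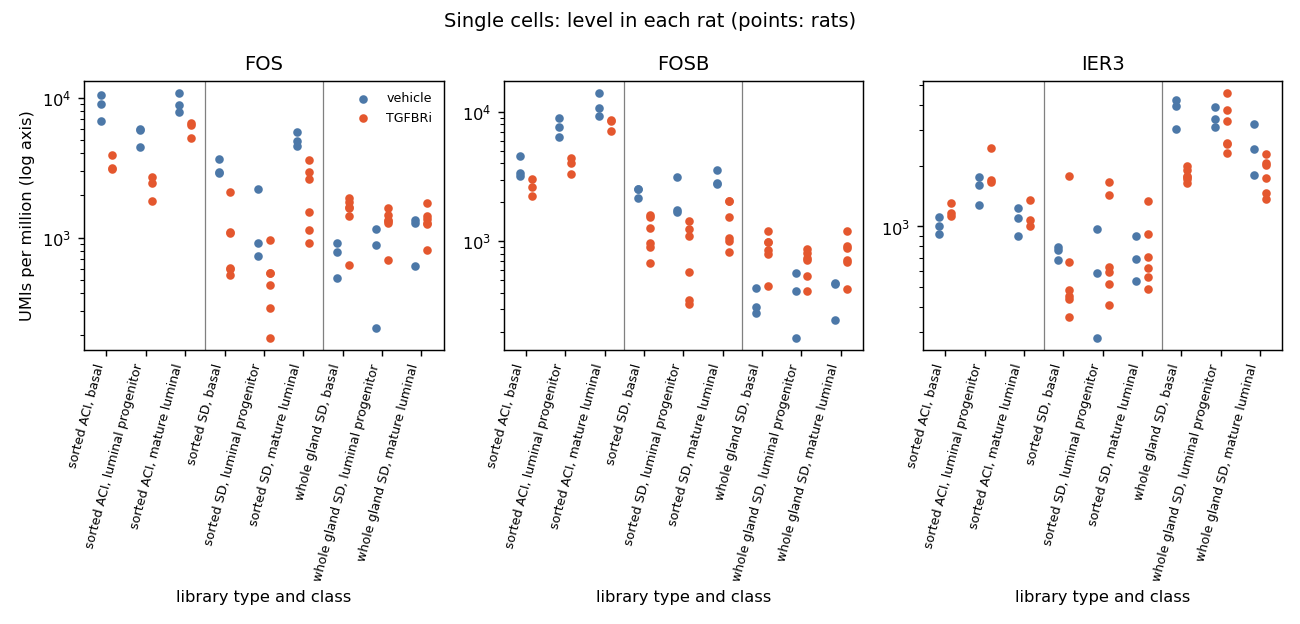
Level of FOS, FOSB and IER3 in CPM (y axis, log scale) in each rat, by library type and epithelial class (x axis). Points are rats, vehicle in blue and TGFBRi in orange. In basal-like cells FOS of the TGFBRi rats lies below the vehicle rats in the sorted libraries and mostly above them in whole gland.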

How the data were processed

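Bulk RNA-seq was made by the authors with a low-input kit, aligned with STAR 2.5.1b to rat build rn6 and counted per gene without strand. The deposited bulk values are a signal unit, gene counts divided by DESeq2 (1.30.1) size factors, with the epithelial fractions of the young ACI table scaled together, those of SD and NMU rats likewise, and other fractions separately. Dividing each sample's values by their smallest step gave whole reads for 100% of 2526805 values above 0 (tolerance 0.001 read), so count tests were run as alternatives. Entries that name no gene, 23.1% to 42.5% of reads in 85 samples, were left out. The deposited single-cell counts are UMI counts per cell from Cell Ranger 4.0.0 (sorted, 3' libraries) and 7.0.0 (whole gland, 5' libraries), filtered by the authors on genes, mitochondrial reads and, in sorted libraries, PTPRC and keratin reads.

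For bulk values, log2(value + 1) of genes whose values summed to 10 or more was fitted with limma 3.58.1 per table over all groups, and contrasts were called at a Benjamini-Hochberg adjusted p of 0.05. Fold changes are on that scale and understate low genes. Fractions of the same rats were compared on CPM of the recovered reads. Single cells were clustered with scanpy 1.11.5 and leidenalg 0.10.2 without the members (2000 variable genes, 30 components, 20 neighbours, resolution 0.8), named from 3 or more listed markers, and summed per rat and class with at least 10 cells. These counts were tested with edgeR 4.0.16 (quasi-likelihood, TMM) at an adjusted p of 0.1. The study tested single cells by another method and the 0.1 alone was taken from it. No doublet caller was run; leaving out the 5% of cells with most UMIs was an alternative. In whole gland 3 clusters (5229 cells) stayed unnamed, and the SD pericyte-like class with 1 vehicle rat was not tested. Among the keratin-filtered sorted cells the paper describes secretory basal cells, which it reports to be epithelial. Whether the SD fibroblast-like and pericyte-like classes hold those cells was not tested. DESeq2 1.42.0 was an alternative and gives the standard errors in single cells. Fits were tested on simulated data.

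Groups came from the sample labels. For 1 young ACI rat the title says vehicle and some descriptions say treated, and for 1 CD45+ sample the title gives another day than the description, which says day 7 and was used. For 1 estradiol rat 4 parts of the gland were averaged. P-values measure the spread between rats of 1 experiment. The rule for named genes was the 9 members everywhere, list genes past a threshold (at most 5 per direction) and the 10 most similar genes. Members, lists and tests were chosen with earlier results of these data known. Intervals of depth are counting error only.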

Additional observations from a re-analysis of the deposited data

Results flagged for a closer look

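Single rats stood far from the others of their group in 11 of 198 bulk groups of a gene and in 11 of 136 single-cell groups, where chance gives about 1 in 20. In SD luminal vehicle samples FOS was at 27900 in 1 rat and at 144788 to 164633 in the other 3. EGR1 in SD luminal TGFBRi samples was at 14131 in 1 rat against 54103 to 62189. DUSP1 in adult CD45+ parous TGFBRi samples was at 182942 in 1 rat against 44831 to 67474.

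In the estradiol experiment the tumor-free TGFBRi rat A4-24 was highest for ATF3 (19793) and IER3 (7682) in CD45+ cells and for IER3 (58296) in luminal cells. In adult basal virgin vehicle samples rat N1N was highest for IER3 (39214) and IER2 (37559), and IER2 was at 47208 in 1 parous TGFBRi rat. FOSB was at 47813 in 1 adult luminal virgin vehicle sample, and IER3 at 21731 in 1 SD basal TGFBRi sample.

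In sorted SD libraries, in CPM of UMIs, TGFBRi rat 13 was highest in basal-like cells for FOS (2128) and ATF3 (1019), and rat 14 for IER3 (1776). In pericyte-like cells rat 14 had the lowest FOSB (417) and the highest IER3 (1294). In whole gland, TGFBRi rat 11 was lowest for ATF3 (288) and JUN (993) in basal-like cells and for FOS (686) in luminal progenitor-like cells. EGR1 in pericyte-like cells was at 710 in rat 1, IER3 in NK-like cells at 9.19 in rat 2 and ATF3 in T-like cells at 35.5 in rat 14. IER3 in SD basal-like cells without rat 14 had a log2 change of -0.28, against 0.37 with all rats, and neither passed.

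The TGFBRi effect differed between sorted and whole-gland SD libraries by a test of the difference (edgeR, log2, sorted minus whole gland). In basal-like cells it was -2.4105 for EGR1, -2.3495 for FOS, -2.1155 for FOSB, -1.2636 for ATF3, -0.753 for JUN and 1.3621 for IER3. In luminal progenitor-like cells it was -1.7503 for FOSB, -1.247 for EGR1 and 0.9124 for ATF3. In mature luminal-like cells it was -1.7198 for FOSB, -1.1467 for FOS and 1.0686 for IER3.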

How the results depend on the processing

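The 155 called member values kept their direction under every alternative run, and 84 also stayed past the threshold in each. Against the 1 bulk call for TGFBRi, fits of only the 2 groups gave 3 calls, without that of IER3, and DESeq2 gave 6, and leaving out 1 rat gave 0 to 3 (0 without adult rats C_N2N, C_N2R or D_N2N, 3 without D_N2R). The 6 calls by day in vehicle rats became 10 with a stricter filter, 10 on TMM-scaled CPM, 0 with only the 2 groups and 16 with DESeq2, and 2 to 10 with 1 rat left out (2 without LD3R or LD4R, 10 without LD5R). The 0 differences between days or parity became 1 without adult rat D_N1N, a range of 0 to 1. Leave-one-out counts were 31 to 40 for fractions, 54 to 73 for TGFBRi in single cells, 11 to 12 for basal against luminal sorts, 17 to 18 for sorted against whole gland and 5 to 13 for the difference between them (5 without SD rat 3). The test of the difference between library types with its alternatives, the fit of whole-gland rats 1, 2 and 4 without a block, levels within clusters, counts without lymphocyte classes, and the pseudocount, filter and scaling settings for day and parity were chosen after seeing the data. Of 90 relations of a member between fractions of the same rat 6 passed (permutation test, and 6 by Spearman), against 4 (and 1 by Spearman) on TMM-scaled CPM, and 0 passed on either scale without the 2 rats farthest from the median.

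The replicate block in adult rats gave IER3 an adjusted p of 0.0272 (limma). Deviations of same-numbered adult rats of the 2 arms correlated at -0.45 to 0.30. Fractions of the same adult rat also correlated weakly, with medians of 0.114 for basal and 0.057 for CD45+ against luminal cells. This check therefore cannot decide whether the numbers mark pairs. With the rat as replicate block the fraction calls were 40, and in basal against luminal sorts 12. The added fraction calls were all lower (limma with block). They were DUSP1 and IER2 in adult basal against luminal cells (adjusted p = 0.0419 and 0.0320) and IER3 in CD45+ cells of tumor against gland (0.0117, and 0.0583 without block). In whole gland, pairing rats 1, 2 and 4 gave 56 single-cell calls in all, against 58 with these rats and no block. The causes of these shifts were not tested. IER3 in lymphocytes stood at 9.19 to 113 CPM, a low level that limits its precision there.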
